A study of Mus musculus with 12 samples.

Results

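The insulin-like growth factor (IGF) system was followed through 10 genes chosen by name: the ligands Igf1 and Igf2, the receptors Igf1r and Igf2r, and the binding proteins Igfbp2, Igfbp3, Igfbp4, Igfbp5, Igfbp6 and Igfbp7. All 10 were among the 38924 mouse genes counted, and all 10 were among the 16953 genes that passed the filter on low counts. The data are bulk RNA sequencing read counts from 12 libraries of sorted C57BL/6 mouse cells, in 6 groups of 2. Every mouse carried the ROSAmTmG reporter, in which Cre recombinase switches a cell and its descendants from red to green fluorescence, so GFP marks a cell's history and not only its present expression. The groups were GFP+ and GFP- mammary cells of the Ucp1-iCre line, GFP+ and GFP- mammary cells of the Myf5-Cre line, and GFP+ brown adipocytes of the Ucp1-iCre line and of the Myf5-Cre line. Mammary cells were gated as lineage-negative, CD24-positive and CD29-high, the gate for myoepithelial cells, at day 10 of lactation. Brown adipocytes came from virgin females aged 8 weeks. GFP- brown adipocytes were not analysed here. Any comparison of mammary cells with brown adipocytes therefore also compares lactating with virgin mice, and the tissue, the lactation and the age cannot be told apart. The labels do not say whether the 2 libraries of a group came from separate mice, so the p-values reflect the spread among these libraries and no more, which may be technical.

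IGF1 and IGF2 are secreted growth factors that act through the IGF1 receptor, a tyrosine kinase related to the insulin receptor, while the IGF2 receptor takes up IGF2 and delivers it to lysosomes. The binding proteins are secreted too, and by holding the ligands they limit or prolong their access to the receptor. In the mammary gland IGF1 promotes ductal growth and epithelial survival, and Igfbp5 is known for its rise in involution. In brown fat, IGF1 and insulin signalling both act in adipocyte differentiation.

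Library totals ran from 11027738 to 32956480 counts, so that 3 counts, the limit that a count of 0 allows, lay between 0.0910 and 0.272 CPM, which is counts scaled to a common library total, on raw totals. Both Ucp1 GFP+ mammary libraries stood apart, with 10909 and 10560 genes detected against 13761 to 19794 in the other 10 libraries. Their replicate correlation was 0.731, against 0.879 to 0.990 in the other groups. Of genes at 10 to 30 CPM in Ucp1 GFP- mammary cells, 14.1% had under 3 counts in both Ucp1 GFP+ mammary libraries, and 0.0564% in both Myf5 GFP+ mammary libraries. The gate's label was checked against marker lists. The summed level of 5 basal epithelial markers was 298 to 367 CPM in Ucp1 GFP+ mammary cells, against 1539 to 1680 CPM in Ucp1 GFP- mammary cells. In Myf5 GFP+ mammary cells it was 90.4 to 244 CPM, against 2237 to 3693 CPM in Myf5 GFP- mammary cells. The 6 contractile markers of myoepithelial cells summed to 1272 to 3087 CPM in Ucp1 GFP+ mammary cells, against 9830 to 11507 CPM in Ucp1 GFP- mammary cells, and to 3314 to 4878 CPM in Myf5 GFP+ mammary cells, against 8037 to 15838 CPM in Myf5 GFP- mammary cells. The 4 endothelial markers summed to 3733 to 5646 CPM in Ucp1 GFP+ mammary cells, above both of these lists there, and to 3293 to 3556 CPM in Ucp1 GFP- mammary cells. The 8 fibroblast and preadipocyte markers summed to 9839 to 18136 CPM in Myf5 GFP+ mammary cells, far above the basal markers there, so the sorted cells are called mammary cells here. Brown adipocyte libraries held 2607 to 24226 CPM of 5 brown adipocyte markers, and Ucp1 itself had 0 counts in all 4 GFP+ mammary libraries.

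In the GRCm38 (mm10) annotation the genes lie on 7 chromosomes. Igf1 (ENSMUSG00000020053) spans chr10:87858265-87937042. Igf2 (ENSMUSG00000048583) spans chr7:142650766-142666816 and Igf1r (ENSMUSG00000005533) chr7:67952827-68233668. Igf2r (ENSMUSG00000023830) spans chr17:12682406-12769664. Igfbp2 (ENSMUSG00000039323) and Igfbp5 (ENSMUSG00000026185) are neighbours at chr1:72824503-72852474 and chr1:72857932-72874884. Igfbp3 (ENSMUSG00000020427) spans chr11:7206086-7213923 and Igfbp4 (ENSMUSG00000017493) chr11:99041244-99054392. Igfbp6 (ENSMUSG00000023046) spans chr15:102144362-102149511 and Igfbp7 (ENSMUSG00000036256) chr5:77349240-77408041. Igf2 is the uncertain member, since 85.1% of its 31-base windows also occur in transcripts of another annotated gene. A same-strand model overlaps 62.8% of its exon bases, but that model was not among the genes counted. Igfbp7 shares 85 exon bases with Polr2b on the opposite strand, which had 16320 counts in all against 356554 for Igfbp7, and the strand setting of the counting is not given in the sources used here. For the other 8 genes at most 4.12% of windows were shared.

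The promoters of Igfbp4, Igfbp5 and Igfbp6 are shown because these binding proteins passed the test that the GFP label effect differs between the Ucp1 and Myf5 lines. Igfbp6 did so at an edgeR adjusted p of 0.04999, and missed the threshold in most other settings given below. Each is the sequence before the gene's RefSeq start in GRCm38.p6, read along the gene's strand: chr11:99040994-99041243 on the plus strand for Igfbp4, chr1:72874885-72875115 on the minus strand for Igfbp5, and chr15:102143936-102144185 on the plus strand for Igfbp6. Capitals mark matches, on either strand, to TATAAA (the TATA box), to CCAAT (the box that NF-Y binds) or to GGGCGG (the GC box), and bases in annotated exons were left out. The RefSeq start of Igfbp4 is that of the gene span above, that of Igfbp5 lies 19 bases inside the span, and that of Igfbp6 lies 176 bases before it.
Igfbp4: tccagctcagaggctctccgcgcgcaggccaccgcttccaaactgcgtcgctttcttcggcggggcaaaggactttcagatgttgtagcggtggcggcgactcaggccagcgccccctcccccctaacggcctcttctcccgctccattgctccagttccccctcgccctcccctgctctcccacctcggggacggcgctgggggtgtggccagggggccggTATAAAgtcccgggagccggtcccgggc
Igfbp5: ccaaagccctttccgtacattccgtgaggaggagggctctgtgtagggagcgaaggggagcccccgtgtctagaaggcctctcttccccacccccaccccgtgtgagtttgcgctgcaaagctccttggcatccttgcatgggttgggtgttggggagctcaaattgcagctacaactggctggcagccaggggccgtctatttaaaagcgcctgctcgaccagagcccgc
Igfbp6: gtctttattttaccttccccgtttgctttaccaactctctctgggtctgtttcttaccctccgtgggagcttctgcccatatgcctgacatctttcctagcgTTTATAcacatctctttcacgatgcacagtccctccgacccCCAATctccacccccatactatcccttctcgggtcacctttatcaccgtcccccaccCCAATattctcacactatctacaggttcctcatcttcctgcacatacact
The Igfbp4 sequence held TATAAA 28 bases before the RefSeq start and was 69.2% G or C. In Igfbp6, which was 49.6% G or C, CCAAT stood 107 and 50 bases before the RefSeq start, and TATAAA on the other strand at 148 bases. None of the 3 motifs occurred in the 231 bases shown for Igfbp5, which were 60.6% G or C. Of 32851 promoter windows of 250 bases, 12.4% held TATAAA, 33.8% held CCAAT and 32.7% held GGGCGG. These matches describe the letters only and were not tested as sites.

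Binding proteins made up nearly all of the IGF system's transcripts in every library. On the scale of CPM per kilobase of exon, which allows levels of different genes to be set side by side, they held 93.2% to 99.6% of the summed level of the 10 genes, with a mean of 97.5%. Igfbp7, a secreted protein with low affinity for IGFs, had the highest mean over the 12 libraries, at 929 CPM per kilobase. Igfbp6, which prefers IGF2, followed at 150 CPM per kilobase, Igfbp3 at 53.0, Igfbp4 at 37.9, Igfbp2 at 29.6 and Igfbp5 at 27.7. The mean of Igfbp6 was carried by the Myf5 GFP+ mammary cells, and its median over the libraries was 17.0 CPM per kilobase, below the 39.5 of Igfbp3. Igfbp3 lay above Igfbp6 in 8 of 12 libraries. The receptors and ligands were far lower, with Igf2r at 7.51, Igf1 at 3.13, Igf2 at 2.06 and Igf1r at 0.809 CPM per kilobase. Igfbp7 was the largest member in 11 of 12 libraries. The exception was replicate 1 of the Myf5 GFP+ mammary cells, in which Igfbp6 held 71.5% of the summed level and Igfbp7 11.5%. In replicate 2 of that group Igfbp6 held 17.9% and Igfbp7 70.7%. The share of Igfbp6 was 1.35% and 0.00263% in Ucp1 GFP+ mammary cells, against 4.23% and 2.43% in Ucp1 GFP- mammary cells. In Myf5 brown adipocytes Igfbp4 held 30.7% and 13.2%, the largest shares this gene had in any library.

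**Figure D1:**
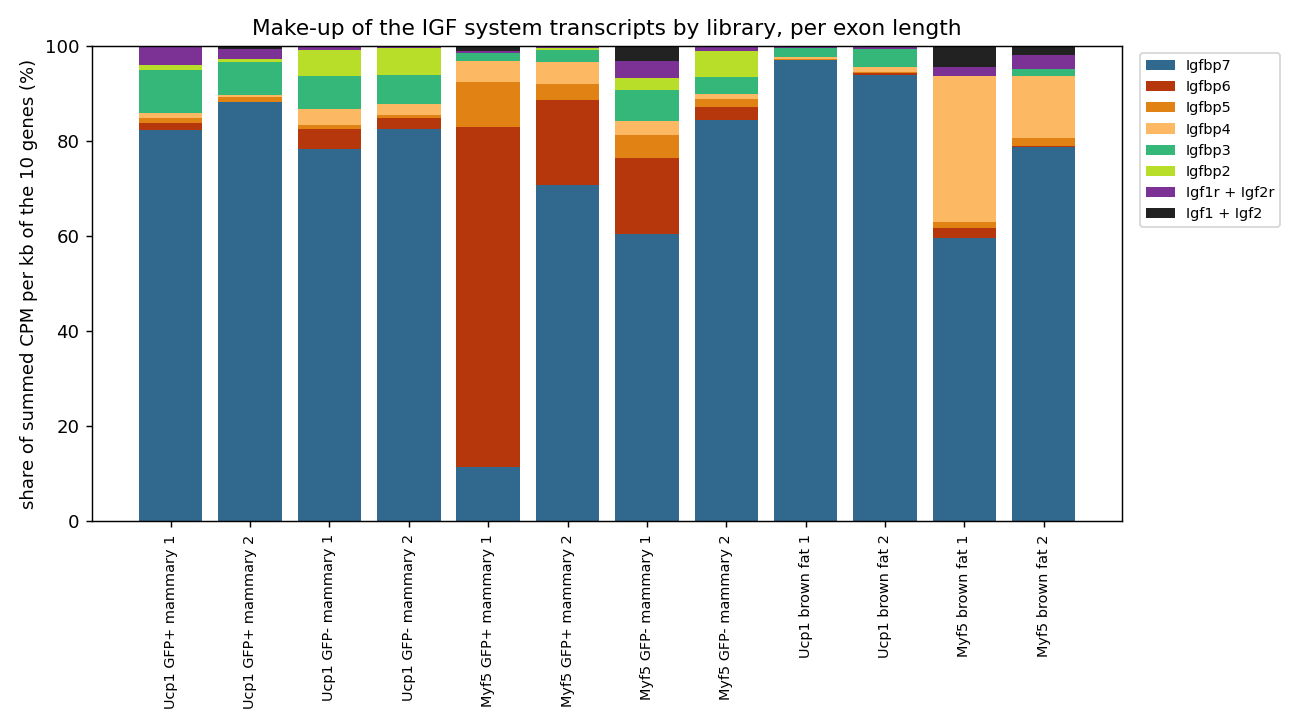
Share of each IGF system gene in the summed level of the 10 genes, in percent of CPM per kilobase of exon, in each of the 12 libraries (1 bar per library). Igfbp7 is the largest block in all libraries except replicate 1 of the Myf5 GFP+ mammary cells, where Igfbp6 holds 71.5%, and ligands and receptors together never fill more than a thin band at the top.

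Igf1 was almost absent from Ucp1 GFP+ mammary cells and present in every other group. All levels here, including those above, are CPM scaled by TMM, a factor per library that evens out composition. Only the limit of 3 counts was put on raw totals. In Ucp1 GFP+ mammary cells Igf1 had 0.0367 and 0 CPM, from 1 and 0 counts, against 19.9 and 14.8 CPM in Ucp1 GFP- mammary cells. Such near-absence was not particular to Igf1. Of genes at 10 to 30 CPM in Ucp1 GFP- mammary cells, 14.1% had under 3 counts in both Ucp1 GFP+ mammary libraries. A further 31.7% had under 3 counts in 1 of the 2 only. Levels of Igf1 in the Myf5 line were 108 and 66.0 CPM in GFP+ mammary cells, against 41.7 and 19.2 CPM in GFP- mammary cells. Brown adipocytes had 11.8 and 10.7 CPM in the Ucp1 line and 58.5 and 21.5 CPM in the Myf5 line. The order of the groups thus began with Myf5 GFP+ mammary cells, whose 2 libraries lay above all others. Myf5 brown adipocytes, Myf5 GFP- mammary cells and Ucp1 GFP- mammary cells followed with ranges that overlapped from each to the next, and Ucp1 brown adipocytes and Ucp1 GFP+ mammary cells came last, each clear of its neighbours.

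Igf2, the fetal growth factor, was low and varied widely between replicates. Its values were 4.63 and 27.9 CPM in Ucp1 GFP+ mammary cells, against 16.9 and 12.4 CPM in Ucp1 GFP- mammary cells. In the Myf5 line they were 16.1 and 31.7 CPM in GFP+ mammary cells, against 4.26 and 8.58 CPM in GFP- mammary cells. In Ucp1 brown adipocytes they were 10.5 and 6.21 CPM, against 0.122 and 1.92 CPM, from 1 and 21 counts, in Myf5 brown adipocytes. Only Myf5 brown adipocytes lay below every other library, and the 3 highest group means had ranges that overlapped from each to the next.

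Both receptors were highest in Ucp1 GFP+ mammary cells and lowest in brown adipocytes. Igf1r had 29.8 and 60.3 CPM in Ucp1 GFP+ mammary cells, against 10.1 and 8.5 CPM in Ucp1 GFP- mammary cells. The Myf5 line had 11.5 and 9.50 CPM in GFP+ mammary cells, against 12.2 and 15.5 CPM in GFP- mammary cells. Ucp1 brown adipocytes had 2.83 and 2.47 CPM, against 0.122 and 0.0916 CPM, from 1 count in each library, in Myf5 brown adipocytes. The 4 brown adipocyte libraries lay below all 8 mammary libraries. Igf2r, also the receptor for mannose 6-phosphate, had 198 and 125 CPM in Ucp1 GFP+ mammary cells, against 76.6 and 72.4 CPM in Ucp1 GFP- mammary cells. In the Myf5 line it had 50.5 and 59.2 CPM in GFP+ mammary cells, against 49.0 and 104 CPM in GFP- mammary cells, which overlap. Brown adipocytes had 27 and 22.3 CPM in the Ucp1 line and 22.1 and 32.6 CPM in the Myf5 line, again below all 8 mammary libraries and overlapping each other.

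Igfbp4, Igfbp5 and Igfbp6 were high in Myf5 GFP+ mammary cells and low in Ucp1 GFP+ mammary cells. Igfbp4, which holds IGFs until the protease PAPP-A cleaves it, had 31 and 15.9 CPM in Ucp1 GFP+ mammary cells, against 280 and 262 CPM in Ucp1 GFP- mammary cells. Levels in the Myf5 line were 249 and 759 CPM in GFP+ mammary cells, against 21.2 and 77.1 CPM in GFP- mammary cells. Brown adipocytes had 22.3 and 36.2 CPM in the Ucp1 line and 183 and 70.9 CPM in the Myf5 line. The Ucp1 GFP+ mammary cells and the Ucp1 brown adipocytes, at the bottom of the order, overlapped. Igfbp5 had 37.7 and 51.4 CPM in Ucp1 GFP+ mammary cells, against 89.8 and 74.9 CPM in Ucp1 GFP- mammary cells. In Myf5 GFP+ mammary cells it reached 714 and 782 CPM, against 45.6 and 150 CPM in Myf5 GFP- mammary cells. Ucp1 brown adipocytes had 16.2 and 10.5 CPM and Myf5 brown adipocytes 10.7 and 11.4 CPM. The 2 Myf5 GFP+ mammary libraries therefore stood above all 10 others, and the 4 brown adipocyte libraries below all mammary ones. Igfbp6 had 9 and 0.0243 CPM, from 245 and 1 counts, in Ucp1 GFP+ mammary cells, against 89.1 and 69.4 CPM in Ucp1 GFP- mammary cells. In Myf5 GFP+ mammary cells it had 1014 and 744 CPM, against 28.8 and 41.6 CPM in Myf5 GFP- mammary cells. Brown adipocytes had 0.630 and 2.38 CPM in the Ucp1 line and 3.05 and 0.275 CPM in the Myf5 line. The top 3 groups in Igfbp6, Myf5 GFP+, Ucp1 GFP- and Myf5 GFP- mammary cells, did not overlap, while the 2 brown adipocyte groups did.

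Igfbp2, Igfbp3 and Igfbp7 were highest in Ucp1 GFP- mammary cells by their group means. Igfbp2, which binds both ligands, had 11.8 and 10.9 CPM in Ucp1 GFP+ mammary cells, against 191 and 268 CPM in Ucp1 GFP- mammary cells. The Myf5 line had 0 and 21.9 CPM in GFP+ mammary cells, against 7.36 and 146 CPM in GFP- mammary cells. It was near 0 in brown adipocytes, with 0 and 0.0850 CPM in the Ucp1 line and 0.244 and 0 CPM in the Myf5 line, from 3 counts over the 4 libraries. Igfbp3, the main carrier of IGFs in blood, had 169 and 178 CPM in Ucp1 GFP+ mammary cells, against 421 and 498 CPM in Ucp1 GFP- mammary cells. In the Myf5 line it had 67.1 and 289 CPM in GFP+ mammary cells, against 33.1 and 163 CPM in GFP- mammary cells. Ucp1 brown adipocytes had 84.6 and 81.8 CPM, against 0 and 5.31 CPM in Myf5 brown adipocytes. The Myf5 brown adipocytes lay below every other library in Igfbp3. Igfbp7 had 598 and 886 CPM in Ucp1 GFP+ mammary cells, against 1792 and 2566 CPM in Ucp1 GFP- mammary cells. Levels in the Myf5 line were 177 and 3186 CPM in GFP+ mammary cells, against 118 and 1495 CPM in GFP- mammary cells. Ucp1 brown adipocytes had 1655 and 794 CPM, against 97.0 and 116 CPM in Myf5 brown adipocytes. The first 5 groups in order of Igfbp7 overlapped from each to the next, and Myf5 brown adipocytes were apart at the bottom.

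The 2 replicates of the Myf5 line differed in the same direction in GFP+ and in GFP- mammary cells for all members except Igf1r and Igfbp6. Replicate 2 over replicate 1 was 18.0 in GFP+ and 12.6 in GFP- mammary cells for Igfbp7, 4.30 and 4.90 for Igfbp3, and 3.04 and 3.63 for Igfbp4. For Igfbp2 replicate 1 of the GFP+ mammary cells had 0 counts, and the ratio in GFP- mammary cells was 19.8. Igf1 went the other way, with ratios of 0.612 in GFP+ and 0.461 in GFP- mammary cells. Other genes moved with these replicates, among them the milk gene Csn2 with ratios of 0.418 in GFP+ and 0.459 in GFP- mammary cells, and the basal keratin Krt5 with 3.15 and 3.66. In the Ucp1 GFP- mammary cells the same ratios lay between 0.734 and 1.43 for all 10 members.

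**Figure D2:**
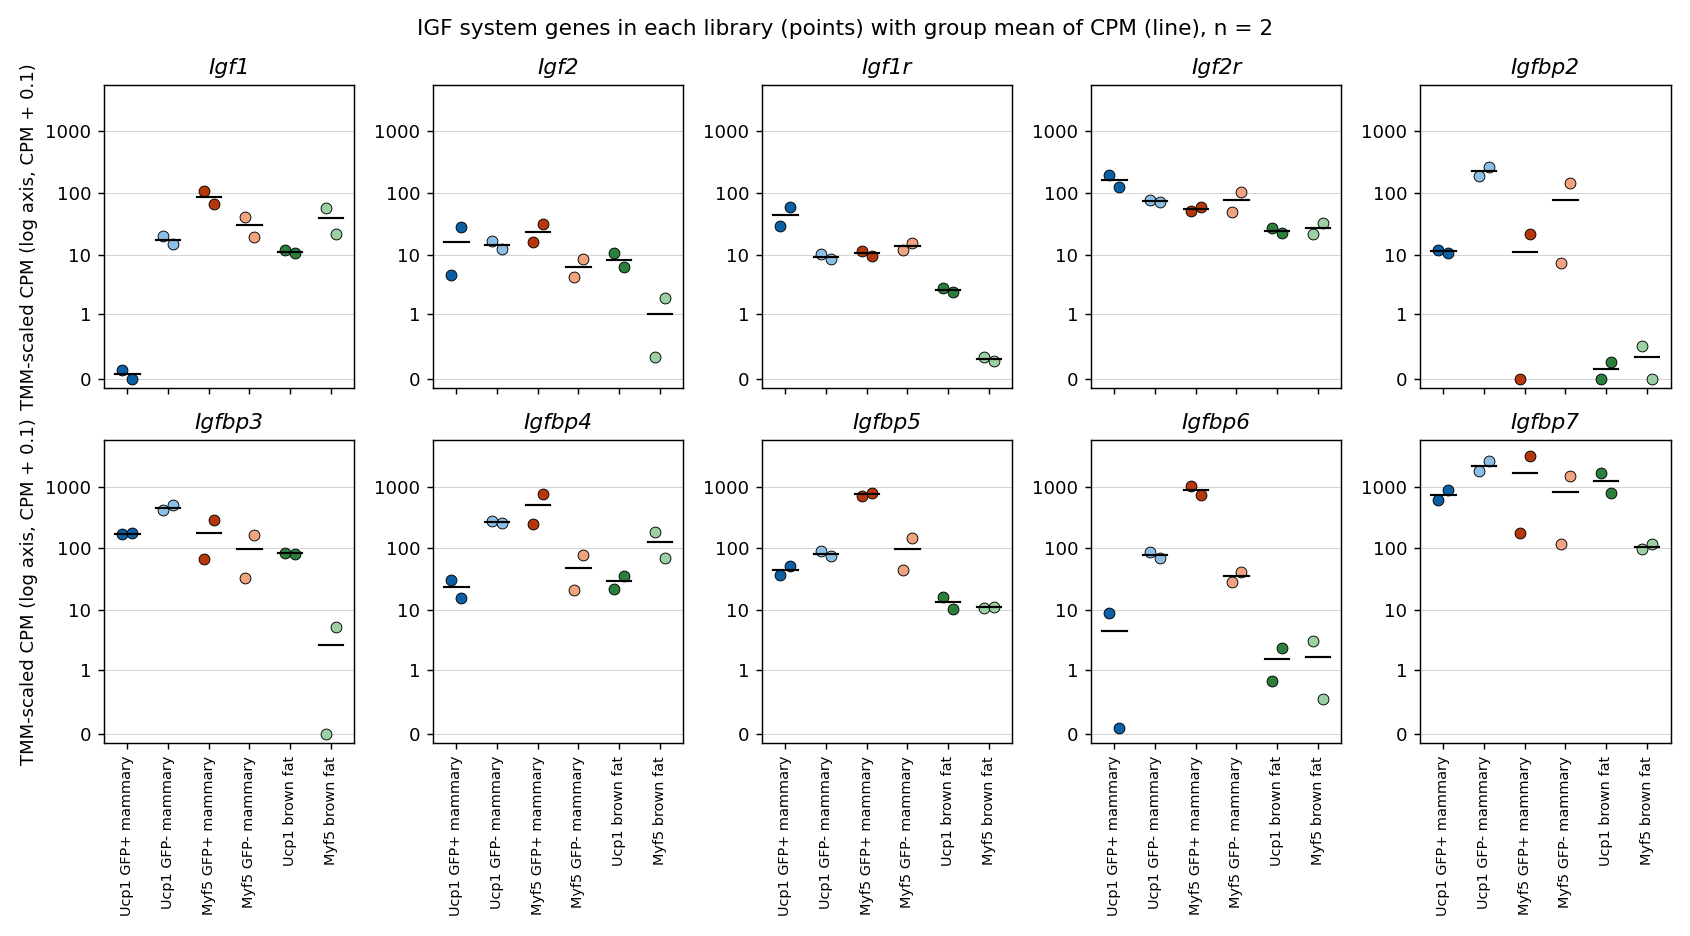
TMM-scaled CPM of the 10 genes in each library (points, log axis of CPM + 0.1) with the mean of the 2 libraries of each group (line). Igf1 in Ucp1 GFP+ mammary cells lies at 0.0367 and 0 CPM, Igfbp5 and Igfbp6 lie highest in Myf5 GFP+ mammary cells, and the points of Igfbp7 in the Myf5 mammary groups are far apart.

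The first comparison asks how mammary cells with a history of the Ucp1 driver differ from unlabelled cells of the same gate. In Ucp1 GFP+ against Ucp1 GFP- mammary cells, Igf1 and Igfbp4 fell, both receptors lay higher without passing the edgeR test, and all 6 binding proteins lay lower in both libraries. Igf1 fell by 9.67 on the log2 scale (SE 1.22, edgeR adjusted p = 0.00146), a ratio of counts of 1190-fold lower with an exact 95% interval of 213 to 47000 that covers counting error only. Of genes at 10 to 30 CPM in Ucp1 GFP- mammary cells, 14.1% had under 3 counts in both GFP+ libraries, as Igf1 did. Igfbp4 averaged 23.5 ± 10.7 CPM in Ucp1 GFP+ mammary cells and 271 ± 12.1 CPM in Ucp1 GFP- mammary cells (SD, n = 2 each), a log2 fold change of -3.53 (SE 0.838, edgeR adjusted p = 0.0224). So 2 of 10 members fell and none rose, where 14% of the 16953 genes tested fell and 0.277% rose. Igf1r had a log2 fold change of 2.27 (SE 0.724, edgeR adjusted p = 0.0656) and Igf2r of 1.12 (SE 0.501, edgeR adjusted p = 0.164), neither past the threshold of 0.05. DESeq2 called both Igf1r (2.45, DESeq2 adjusted p = 1.57e-05) and Igf2r (1.3, DESeq2 adjusted p = 0.0302), beside 568 of 16953 genes called higher. In the binding proteins other than Igfbp4, log2 fold changes ran from -4.34 in Igfbp2 to -0.89 in Igfbp5, and no edgeR adjusted p was under 0.05. Of the 10 members, 7 lay lower without overlap, against a background of 48.1% of genes, and 2 lay higher, against 11.8%. The median over the 10 members was -1.48 on the log2 scale, and over all genes tested -0.69. The 8 fibroblast and preadipocyte markers summed to 201 to 683 CPM in Ucp1 GFP+ mammary cells, against 2360 to 2951 CPM in Ucp1 GFP- mammary cells. Of these 8, 7 lay lower without overlap, with Dpp4 at 0 in both GFP+ libraries and Pdgfra and Dpt at 0 in replicate 1. The drop was not particular to fibroblast markers: all 5 basal, 4 luminal, 6 contractile, 4 milk, 4 pericyte, 4 immune and 3 Schwann markers lay lower without overlap too. Of the 4 endothelial markers none lay lower and 1 lay higher. The part of these cell types in the result was not tested. In bulk libraries fewer cells of a type and less RNA per cell cannot be told apart. The call of Igfbp4 was lost without Ucp1 GFP+ replicate 2 (edgeR adjusted p = 0.0578), without Ucp1 GFP- replicate 1 (0.0731) and without Ucp1 GFP- replicate 2 (0.0666), and that of Igf1 in a fit of only these 4 libraries (0.0558). That fit called Igfbp2 (-4.26 on the log2 scale, edgeR adjusted p = 0.037) and Igfbp3 (-1.33, edgeR adjusted p = 0.037) in turn. It called 3300 of 14859 genes lower, and 0.037 was its smallest edgeR adjusted p over all genes. Wherever a library is left out, the other library of its group is assumed to vary like the other groups. Without Ucp1 GFP+ replicate 1 the fit gave log2 fold changes of -11.38 for Igfbp6 (edgeR adjusted p = 0.00136), a value that rests on 1 count in the lone GFP+ library, and 2.68 for Igf1r (edgeR adjusted p = 0.00788).

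In Myf5 GFP+ against Myf5 GFP- mammary cells, no member passed the test. The largest differences were in Igfbp6, Igfbp4 and Igfbp5, each higher in both GFP+ libraries than in both GFP- libraries. Igfbp6 averaged 879 ± 191 CPM in Myf5 GFP+ mammary cells and 35.2 ± 9.05 CPM in Myf5 GFP- mammary cells, Igfbp4 504 ± 360 and 49.2 ± 39.5 CPM, and Igfbp5 748 ± 48.3 and 97.7 ± 73.8 CPM (SD, n = 2 each). Their log2 fold changes were 4.64 (SE 1.75, edgeR adjusted p = 0.437) for Igfbp6, 3.36 (SE 0.832, edgeR adjusted p = 0.29) for Igfbp4 and 2.94 (SE 0.578, edgeR adjusted p = 0.224) for Igfbp5. The count of 0 of 10 members stood beside 0% of the 16953 genes tested, of which 1573 had an unadjusted p under 0.05. DESeq2 called 724 genes, among them Igfbp4 (adjusted p = 0.00141) and Igfbp5 (adjusted p = 1.2e-05). Igf1 and Igf2 were also higher without overlap, with log2 fold changes of 1.51 (SE 0.805) and 1.90 (SE 1.23). In all 5 members lay higher without overlap, against 14.5% of genes, and Igf1r alone lower, against 20.2%. The median over the members was 1.29 on the log2 scale, and over all genes -0.06. Without the 2 Ucp1 GFP+ mammary libraries, which are in neither group compared but share the estimate of the spread, the scaling and the filter on low counts, Igfbp5 (edgeR adjusted p = 0.0462) and Igfbp6 (edgeR adjusted p = 0.0465) rose, beside 1.09% of 16521 genes. The fibroblast and preadipocyte markers summed to 9839 to 18136 CPM in Myf5 GFP+ mammary cells, against 487 to 843 CPM in Myf5 GFP- mammary cells, and all 8 of 8 lay higher without overlap, with none at 0 in these libraries. The 4 pericyte markers summed to 2216 to 2538 CPM in Myf5 GFP+ mammary cells, against 364 to 596 CPM in Myf5 GFP- mammary cells, also 4 of 4 higher without overlap and none at 0. All 5 basal, 4 luminal, 4 endothelial and 3 Schwann markers, 5 of 6 contractile, 3 of 4 milk and 3 of 4 immune markers lay lower without overlap. The part of these cell types in the result was not tested. Without Myf5 GFP+ replicate 2, Igfbp7 (1.06 on the log2 scale) turned to -2.20 and Igfbp3 (0.86) to -0.55. Without Myf5 GFP- replicate 2, Igfbp2 (-2.80) turned to 0.58 and Igf2r (-0.48) to 0.17. At each replicate number, though, Igfbp7 lay higher in GFP+ mammary cells (177 against 118 and 3186 against 1495 CPM). So did Igfbp3 (67.1 against 33.1 and 289 against 163 CPM). Igfbp2 lay lower at each number, and Igf2r kept no single direction. A fit without 1 library leaves these numbers unmatched, so a turned sign there also holds the difference between replicates.

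The effect of the GFP label differed between the 2 lines for Igf1 and for 3 binding proteins, each with a log2 fold change below 0 in the Ucp1 line and above 0 in the Myf5 line. The log2 fold change in the Ucp1 line minus that in the Myf5 line was -11.18 for Igf1 (SE 1.44, edgeR adjusted p = 0.00244) and -6.89 for Igfbp4 (SE 1.18, edgeR adjusted p = 0.00571). It was -3.82 for Igfbp5 (SE 0.786, edgeR adjusted p = 0.0128) and -8.78 for Igfbp6 (SE 2.45, edgeR adjusted p = 0.04999). These 4 of 10 members passed the test of the difference, all of them lower in the Ucp1 line, where 10.7% of genes passed in that direction and 0.283% in the other. The difference was below 0 in all 6 binding proteins, while that of Igf1r was 2.67 (edgeR adjusted p = 0.136) and that of Igf2r 1.60 (edgeR adjusted p = 0.205). DESeq2 called the difference of Igf1r (2.7, DESeq2 adjusted p = 0.00154), beside 374 of 16953 genes called in that direction, and not that of Igf2r. The median over the members was -2.44 on the log2 scale, against -0.58 over all genes. Igf1 and Igfbp4 passed in all 13 other settings tried. Igfbp5 missed the threshold without Ucp1 GFP- replicate 1 (edgeR adjusted p = 0.0537), and Igfbp6 passed in 4 of the 13 and missed it without any 1 of the 4 Myf5 mammary or 2 Ucp1 GFP- mammary libraries (edgeR adjusted p = 0.0831 to 0.226).

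**Figure D3:**
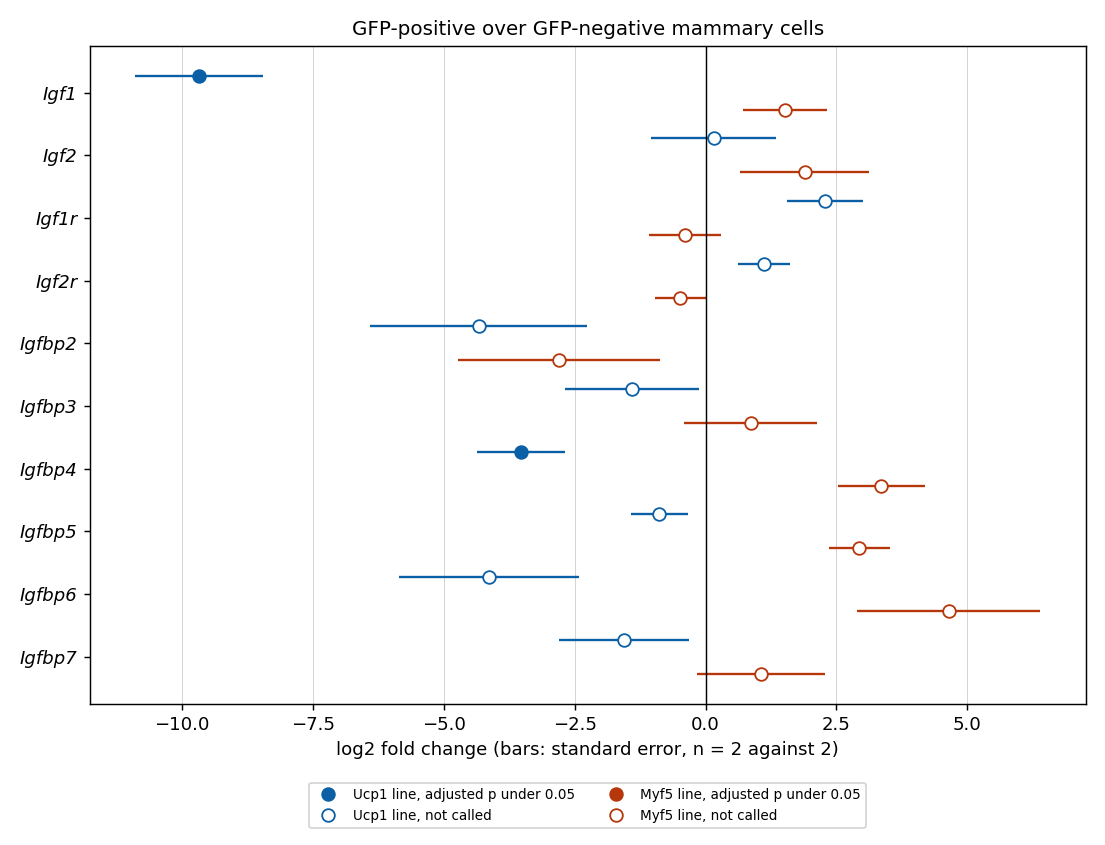
Log2 fold changes of GFP+ over GFP- mammary cells for each of the 10 genes, in the Ucp1 line and in the Myf5 line (n = 2 against 2, bars are standard errors, filled points passed the test). Igf1 at -9.67 and Igfbp4 at -3.53 in the Ucp1 line are the filled points, and Igfbp4, Igfbp5 and Igfbp6 lie on opposite sides of 0 in the 2 lines.

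Most members lay higher in sorted mammary cells than in brown adipocytes. In Myf5 GFP+ mammary cells over Myf5 brown adipocytes, Igf2, Igf1r, Igfbp3, Igfbp5 and Igfbp6 rose, so 5 of 10 members against 10.9% of genes, and none fell, against 8.84%. Igfbp6 averaged 879 ± 191 CPM in Myf5 GFP+ mammary cells and 1.66 ± 1.96 CPM in Myf5 brown adipocytes (SD, n = 2 each), a log2 fold change of 9.07 (SE 2.16, edgeR adjusted p = 0.0198). For Igfbp5 it was 6.08 (SE 0.671, edgeR adjusted p = 0.00101) and for Igfbp3 6.04 (SE 1.58, edgeR adjusted p = 0.0278). Igf1r rose by 6.56 (SE 0.939, edgeR adjusted p = 0.00236), a ratio of counts of 97.7-fold with an exact 95% interval of 26.9 to 809. Igf2 rose by 4.52 (SE 1.39, edgeR adjusted p = 0.0482). All 10 log2 fold changes were above 0, and 9 members lay higher without overlap, against 33.1% of genes. Their median was 5.28 on the log2 scale, against 0.14 over all genes. The 8 fibroblast and preadipocyte markers, 8 of 8 of them higher without overlap, summed to 48.0 to 89.3 CPM in the Myf5 brown adipocytes, where Pdgfra was at 0 in both libraries and Pi16 in replicate 2. Pericyte (3 of 4), endothelial (2 of 4), Schwann (2 of 3) and immune markers (2 of 4, with 1 lower) also lay higher without overlap, and the part of these cell types in the result was not tested. Igf1r and Igfbp5 passed in all 10 other settings. The call of Igf2 was lost without any 1 of the 4 libraries (edgeR adjusted p = 0.0525 to 0.203), that of Igfbp3 without Myf5 GFP+ mammary replicate 2 (0.0847) or Myf5 brown adipocyte replicate 1 (0.0561), and that of Igfbp6 without Myf5 GFP+ mammary replicate 1 (0.0555) or either Myf5 brown adipocyte library (0.0686 and 0.108). Without Myf5 GFP+ mammary replicate 1, Igfbp7 (3.98, edgeR adjusted p = 0.0692) and Igfbp2 (6.57, edgeR adjusted p = 0.102) passed (edgeR adjusted p = 0.0383 and 0.0394), and without replicate 2 Igfbp2 turned to -4.32.

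Between Ucp1 GFP+ mammary cells and Ucp1 brown adipocytes, both receptors and Igfbp5 rose and Igf1 fell. Igf1 averaged 0.0184 ± 0.0260 CPM in Ucp1 GFP+ mammary cells and 11.2 ± 0.738 CPM in Ucp1 brown adipocytes (SD, n = 2 each). Its log2 fold change was -9.04 (SE 1.2, edgeR adjusted p = 0.0012), a ratio of counts of 765-fold lower with an exact 95% interval of 136 to 30300. Igf1r rose by 4.09 (SE 0.787, edgeR adjusted p = 0.0059), Igf2r by 2.71 (SE 0.528, edgeR adjusted p = 0.00621) and Igfbp5 by 1.74 (SE 0.555, edgeR adjusted p = 0.0438). So 3 members rose, beside 5.34% of genes, and 1 fell, beside 22.5%. Without overlap 5 members lay higher, against 16.6% of genes, and 1 lower, against 41.1%. The median over the members was 1.31 on the log2 scale, against -0.69 over all genes. The endothelial markers summed to 3733 to 5646 CPM in Ucp1 GFP+ mammary cells, against 933 to 1750 CPM in Ucp1 brown adipocytes, 4 of 4 higher without overlap. Immune markers summed to 0 to 0.0243 CPM in Ucp1 GFP+ mammary cells, against 8.93 to 16.6 CPM in Ucp1 brown adipocytes, with 3 of 4 lower. Of the fibroblast markers 3 of 8 lay higher and 2 lower, and the part of these cell types in the result was not tested. Both this comparison and that by GFP label in the Ucp1 line rest on the same 2 Ucp1 GFP+ mammary libraries, so the low Igf1 in them enters each. In a fit of only these 4 libraries no member passed, with edgeR adjusted p of 0.0673 for Igf1, 0.0674 for Igf1r, 0.0564 for Igf2r and 0.265 for Igfbp5. That fit called 0 of 13528 genes, with a smallest edgeR adjusted p of 0.0561, so the loss was not particular to the members. Without Ucp1 brown adipocyte replicate 2 the receptors lost their calls (edgeR adjusted p = 0.0506 for Igf1r and 0.0543 for Igf2r), and that of Igfbp5 was lost without either brown adipocyte library (0.0955 and 0.223) or without Ucp1 GFP+ mammary replicate 2 (0.095). The log2 fold change of Igfbp6 (1.56, edgeR adjusted p = 0.512) was -5.68 without Ucp1 GFP+ mammary replicate 1 (edgeR adjusted p = 0.0218), again on 1 count in the lone GFP+ library.

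Unlabelled mammary cells of both lines were also set against brown adipocytes of both lines, 4 libraries against 4. The mammary cells here were GFP- and the brown adipocytes GFP+, so the label cannot be told apart from the tissue either. Igf1r, Igf2r, Igfbp2, Igfbp3, Igfbp5 and Igfbp6 rose, so 6 of 10 members beside 14.6% of genes, and none fell. Igfbp2 had 7.36 to 268 CPM in GFP- mammary cells (median 168), against 0 to 0.244 CPM in brown adipocytes, a log2 fold change of 10.74 (SE 2.09, edgeR adjusted p = 0.006). The ratio of its 18882 counts to 3 was 2240-fold, with an exact 95% interval of 768 to 10900. Igf1r rose by 4.38 (SE 0.591, edgeR adjusted p = 0.00107), Igfbp6 by 5.07 (SE 1.29, edgeR adjusted p = 0.0188), Igfbp3 by 3.82 (SE 1, edgeR adjusted p = 0.0212), Igfbp5 by 2.88 (SE 0.409, edgeR adjusted p = 0.0014) and Igf2r by 1.54 (SE 0.359, edgeR adjusted p = 0.0131). Igfbp3 rose although its groups overlapped, from 33.1 CPM upward in GFP- mammary cells and up to 84.6 CPM in brown adipocytes. The other 5 of these genes did not overlap, where 19.4% of genes lay higher without overlap. Igf1 averaged 23.9 ± 12.1 CPM in GFP- mammary cells and 25.6 ± 22.4 CPM in brown adipocytes (SD, n = 4 each), with a log2 fold change of 0.12 (SE 0.558) that turned to -0.11 under RLE scaling. All 8 fibroblast, 4 endothelial and 3 Schwann markers and 2 of 4 immune markers lay higher in GFP- mammary cells without overlap, and no pericyte marker did, and their part in the result was not tested. This comparison shares its brown adipocyte libraries with the 2 before it. Igf1r and Igfbp5 passed in all 14 other settings. Losses elsewhere came from Igfbp2 without Ucp1 brown adipocyte replicate 2 (edgeR adjusted p = 0.0519), from Igfbp3 without Myf5 GFP- replicate 2, either Ucp1 GFP- library or either Ucp1 brown adipocyte library (0.0584 to 0.11), from Igfbp6 without Myf5 GFP- replicate 2, Ucp1 GFP- replicate 1, Myf5 brown adipocyte replicate 2 or either Ucp1 brown adipocyte library (0.0512 to 0.0946), and from Igf2r without either Ucp1 GFP- library, Myf5 brown adipocyte replicate 1 or Ucp1 brown adipocyte replicate 2 (0.0555 to 0.0641).

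**Figure D4:**
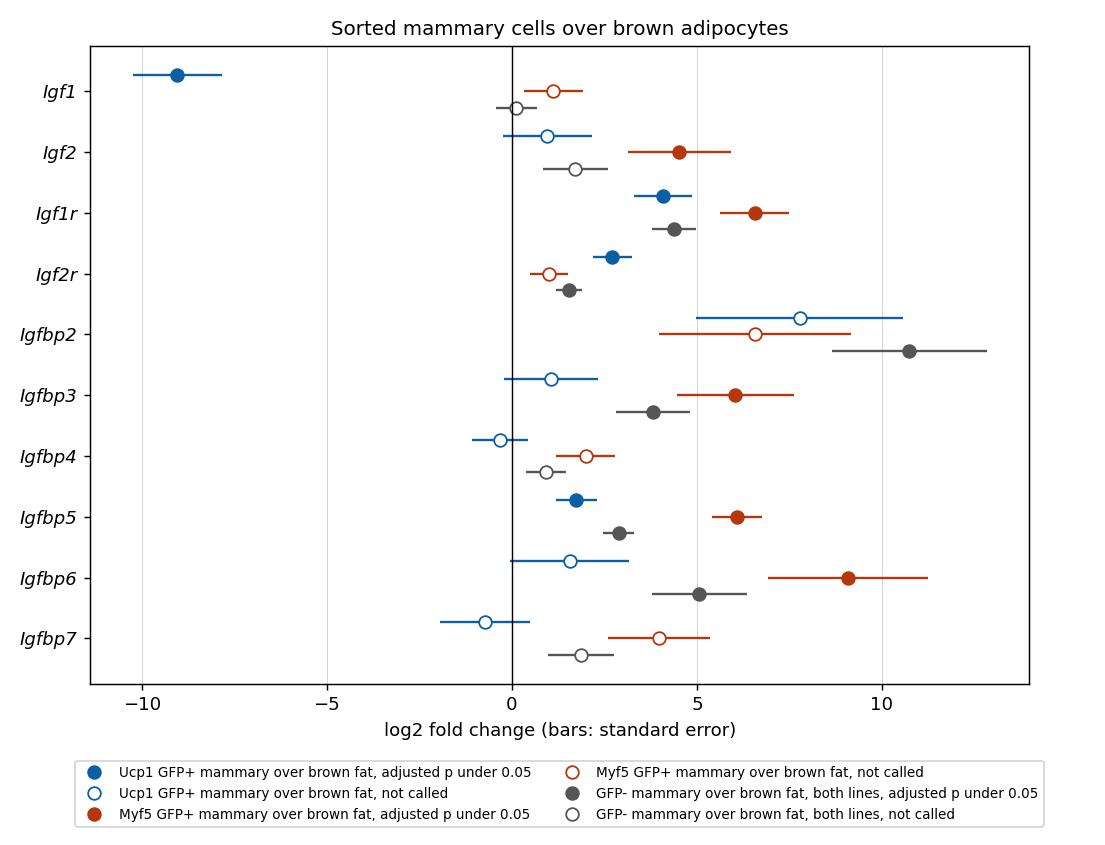
Log2 fold changes of sorted mammary cells over brown adipocytes for the 10 genes, for GFP+ cells of the Ucp1 line, GFP+ cells of the Myf5 line (n = 2 against 2 each) and GFP- cells of both lines (n = 4 against 4), with standard errors and filled points where the test was passed. Igf1r is filled in all 3 comparisons, at 4.09, 6.56 and 4.38, as is Igfbp5, and Igf1 in the Ucp1 line at -9.04 is the only filled point below 0.

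The 2 driver lines were also compared directly, in brown adipocytes and in GFP- mammary cells. In brown adipocytes Igf1r was higher in the Ucp1 line, at 2.65 ± 0.261 CPM, against 0.107 ± 0.0215 CPM in the Myf5 line (SD, n = 2 each), a log2 fold change of 4.58 (SE 0.886, edgeR adjusted p = 0.0442). The ratio of its 56 counts to 2 was 25.1-fold, with an exact 95% interval of 6.64 to 213. It was the only member of 10 to pass, beside 1.29% of genes that rose and 0.0236% that fell. Igfbp3 (4.94, SE 1.5), Igfbp7 (3.52, SE 1.34) and Igf2 (3, SE 1.3) also lay higher without overlap on the log2 scale, and Igfbp4 (-2.12, SE 0.792) and Igf1 (-1.83, SE 0.815) lower, without passing the test. That made 4 members higher without overlap, against 31.3% of genes, and 2 lower, against 28.3%. The 4 endothelial markers summed to 933 to 1750 CPM in Ucp1 brown adipocytes, against 10.4 to 289 CPM in Myf5 brown adipocytes, 4 of 4 higher without overlap and none at 0. The 5 brown adipocyte markers summed to 2607 to 7911 CPM in Ucp1 brown adipocytes, against 19375 to 24226 CPM in Myf5 brown adipocytes, 5 of 5 lower without overlap. Contractile (4 of 6), pericyte (3 of 4, with 1 lower), Schwann (2 of 3) and immune markers (2 of 4) lay higher and general adipocyte markers (3 of 5) lower, and the part of these cell types in the result was not tested. The call of Igf1r was lost under RLE scaling (edgeR adjusted p = 0.0574), without the filter (0.0596), in a fit of only these 4 libraries (0.0508), and without any 1 of them (0.0743 to 0.306). Between Ucp1 GFP- and Myf5 GFP- mammary cells no member passed, beside 0% of the 16953 genes, of which 604 had an unadjusted p under 0.05. DESeq2 called 43 genes there and no member. The largest log2 fold changes were 2.46 in Igfbp4 (SE 0.801) and 2.23 in Igfbp3 (SE 1.31). Without overlap 6 members lay higher, against 30.4% of genes, and 1, Igf1r, lay lower, against 17.8%. Of the markers, 4 of 4 for pericytes, 5 of 8 for fibroblasts and 2 of 4 for endothelium also lay higher without overlap. So did milk (1 of 4), Schwann (1 of 3) and general adipocyte markers (3 of 5, with 1 lower). Basal (2 of 5), contractile (1 of 6) and brown adipocyte markers (1 of 5) lay lower, with none higher. Luminal markers went both ways (1 of 4 each). The part of these cell types in the result was not tested.

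Genes whose pattern across the 12 libraries was most like a member's were sought for the ligand, receptor and binding protein of highest mean CPM. Likeness is Pearson's r of log2(CPM + 1) over 12 libraries among 9021 protein-coding genes that averaged 10 CPM or more. The points share libraries, depth and group structure, so r is a description only. For Igf1 these were Naaa (0.974), Cpq (0.966), Abhd14a (0.956), Zfp706 (0.953) and Glt8d1 (0.95). For Igf2r they were Ankfy1 (0.962), Pik3ca (0.953), 2700081O15Rik (0.948), Jak1 (0.939) and Lrch3 (0.938). For Igfbp7 they were Cebpd (0.980), Csnk1e (0.960), Ier2 (0.953), Trim47 (0.927) and Anp32b (0.916). Among the members themselves, Igf2r was most like Igf1r (0.863), Igfbp7 most like Igfbp3 (0.836) and Igf1 most like Igfbp4 (0.635). Among the 9021 genes these likenesses ranked only 173, 66 and 1331.

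Genes around the IGF system were taken from a list of 33: further carriers, proteases and their inhibitors, receptors and the signalling chain below them. All 33 were in the files and 27 passed the filter on low counts. Akt1, Akt2 and Foxo1, kinases and a transcription factor below the receptors, had the highest mean CPM over all libraries. This order does not allow for exon length. In Ucp1 GFP+ against Ucp1 GFP- mammary cells 5 of 27 fell and none rose, where 14% of all genes tested fell and 0.277% rose. They were Igfals, the third partner of the circulating IGF complex, Stc2, an inhibitor of PAPP-A, the receptor adaptors Irs1 and Grb14, and the transcription factor Stat5b. Igfals had 0.0367 and 0 CPM in Ucp1 GFP+ mammary cells, against 50.3 and 57.0 CPM in Ucp1 GFP- mammary cells, a ratio of counts of 3670-fold lower with an exact 95% interval of 658 to 145000 (edgeR adjusted p = 0.0035). Grb14, Irs1 and Stc2 had 0 counts in both Ucp1 GFP+ mammary libraries. Against 3 counts in the pooled total they were at least 170-fold, 134-fold and 95.7-fold lower than in Ucp1 GFP- mammary cells. There they averaged 7.46, 5.85 and 4.19 CPM. These bounds cover counting error only. Of genes at 10 to 30 CPM in Ucp1 GFP- mammary cells, 14.1% had under 3 counts in both Ucp1 GFP+ mammary libraries. Grb14, Irs1 and Stc2 lay below that range, where the share was not taken. Igfals lay above it, and of genes at 50 to 150 CPM the share was 0.61%. Stat5b averaged 14.4 ± 8.80 CPM in Ucp1 GFP+ mammary cells and 79.2 ± 3.05 CPM in Ucp1 GFP- mammary cells (SD, n = 2 each), a log2 fold change of -2.46 (SE 0.648, edgeR adjusted p = 0.0346). The median of the list was -0.71 on the log2 scale, against -0.69 over all genes. In the Myf5 line none of the 27 passed by GFP label, and 2 had an unadjusted p under 0.05. The difference of the label effect between lines passed for 4 of 27, Igfals, Grb14, Irs1 and Stc2, all lower in the Ucp1 line, beside 10.7% of all genes. Irs1 shares 30.9% of its exon bases with a gene on the opposite strand, so its counts are uncertain.

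Across tissues the same list moved in both directions. In Myf5 GFP+ mammary cells over Myf5 brown adipocytes Stc1, another stanniocalcin, and Grb10, an adaptor that restrains the receptors, rose, and Akt2, Stat5a and Irs1 fell, so 2 and 3 of 27 beside 10.9% and 8.84% of all genes. Akt2, the kinase of insulin-driven glucose uptake, averaged 58.9 ± 17.8 CPM in Myf5 GFP+ mammary cells and 595 ± 16.0 CPM in Myf5 brown adipocytes (SD, n = 2 each), a log2 fold change of -3.34 (SE 0.721, edgeR adjusted p = 0.0135). Irs1 averaged 2.05 ± 0.360 CPM in Myf5 GFP+ mammary cells and 34.1 ± 1.54 CPM in Myf5 brown adipocytes (SD, n = 2 each), a log2 fold change of -4.05 (edgeR adjusted p = 0.0278). In Ucp1 GFP+ mammary cells over Ucp1 brown adipocytes Grb14, Irs1 and Igfals fell, 3 of 27 beside 22.5% of all genes, by at least 201-fold for Grb14 and at least 197-fold for Irs1. The ratio of counts for Igfals was 186-fold lower, with an exact 95% interval of 32.2 to 7490. These bounds and this interval cover counting error only, not the low number of genes detected in Ucp1 GFP+ mammary cells. In GFP- mammary cells over brown adipocytes 5 of 27 rose, Stc1, Stc2, Grb10 and the kinase subunits Pik3ca and Pik3r1, and 2 fell, Akt2 and Irs1, beside 14.6% and 12% of all genes. Between the driver lines none of the 27 passed, in brown adipocytes (5 at an unadjusted p under 0.05) or in GFP- mammary cells (0).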

How the data were processed

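Bulk RNA was sequenced from 12 libraries in 6 groups of 2, grouped by the labels' cell type and genotype. Per the labels' protocols, RNA was purified with an RNeasy Micro kit, cDNA amplified with SMART-Seq v4 and libraries run on a HiSeq instrument. Per the submitters' processing notes, the tools were TopHat, HTSeq and DESeq2, on mm10. For versions, annotation and strand setting, the sources used here give nothing. The authors deposited raw read counts per Ensembl gene, 1 file per library, and these counts were used as they are. No column was left unused.

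Symbols, positions and exon lengths came from GENCODE M21. Sharing between genes was measured on 31-base windows, every 10 bases. Tests used edgeR 4.0.16 in R 4.3.3, with TMM scaling, filterByExpr (minimum count 10), 1 quasi-likelihood fit of all 12 libraries with 6 group means, and Benjamini-Hochberg adjustment over all 16953 genes at 0.05. Each SE is the log2 fold change divided by the root of F. The fit was tested on simulated data. Alternatives were DESeq2 1.42.0, RLE scaling, no filter, a replicate block, fits of only the groups compared, and leaving out libraries. Tables were handled with Python 3.11.15, pandas 2.3.3 and numpy 2.4.6. Ratios of counts carry exact 95% intervals, and these and the floor of 3 counts cover counting error only.

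Members were the 10 genes of the list. The other IGF genes were counted from a list of 33 and named where a test called them or among the 3 of highest mean, and likeness was taken for the ligand, receptor and binding protein of highest mean CPM. The members and lists were chosen with earlier results of these data known.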

Additional observations from a re-analysis of the deposited data

Results flagged for a closer look

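The 4 results below stood out because the effect of the GFP label differed between the driver lines by the edgeR test of the difference itself, given as the log2 fold change in the Ucp1 line minus that in the Myf5 line. They were Igf1 (-11.184), Igfbp4 (-6.885), Igfbp5 (-3.822) and Igfbp6 (-8.78). The Ucp1 GFP+ mammary libraries with 10909 and 10560 genes detected enter all 4 of them, and no fit of these differences is possible with both left out. The value for Igfbp6 rests on 245 counts in Ucp1 GFP+ replicate 1 and 1 count in replicate 2.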

How the results depend on the processing

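Over all alternatives, 737 fold changes of members kept their direction and their side of the threshold, 61 lost a call, 22 gained one and 28 turned their sign. Counts of members called, out of 10, moved as follows. DESeq2 called 2 by GFP label in the Myf5 line, beside 724 of 16953 genes, and 4 in the Ucp1 line, beside 4152. Between the lines in brown adipocytes it called 2, beside 1486 genes. There RLE scaling and the lack of a filter gave 0, beside 135 of 16953 and 257 of 23550 genes. Without the 2 Ucp1 GFP+ mammary libraries 2 were called by GFP label in the Myf5 line, beside 232 of 16521 genes. Fits of only the groups compared gave 3 in the Myf5 tissue comparison, beside 4178 of 13911 genes. They gave 0 in the Ucp1 one, where 0 of 13528 genes were called. Leaving out 1 library at a time moved the counts of members and of all genes called in most comparisons. The exceptions were the GFP label in the Myf5 line and the lines in GFP- mammary cells. Such fits leave 1 library in a group, so their counts of members are not given. The cause of these shifts was not tested beyond the loss of libraries itself.

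Signs turned for Igf1 in GFP- mammary cells against brown adipocytes (-0.11 under RLE scaling and DESeq2) and for Igfbp6 between lines in brown adipocytes (0.02 with only the groups compared). When 1 library was left out, the values that crossed 0 ran as follows. By GFP label in the Myf5 line they were -0.93 to 0.17 for Igf2r, -13.7 to 0.58 for Igfbp2, -0.55 to 2.43 for Igfbp3 and -2.20 to 3.84 for Igfbp7. These Myf5 fits also leave the replicate numbers of the 2 groups unmatched. In the Ucp1 line Igf2 ran from -1.67 to 0.92. In the difference of the label effect Igfbp2 ran from -4.93 to 9.35 and Igfbp7 from -5.40 to 0.63. Across tissues Igfbp2 ran from -4.32 to 11.01 in the Myf5 line, and in the Ucp1 line Igf2 from -0.85 to 1.74, Igfbp4 from -0.88 to 0.08 and Igfbp6 from -5.68 to 2.83. Igf1 ran from -0.21 to 0.57 in GFP- mammary cells against brown adipocytes. Between lines in brown adipocytes the ranges were -0.41 to 0.16 for Igf2r, -4.42 to 3.27 for Igfbp2, -0.06 to 0.55 for Igfbp5 and -1.37 to 2.45 for Igfbp6, and in GFP- mammary cells -0.48 to 0.62 for Igf2r and -0.86 to 0.87 for Igfbp5.

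Replicate numbers are shared by all groups but pair only 2 libraries in each comparison, so they were not taken to pair samples. Same-numbered deviations correlated at 0.472 between Myf5 GFP+ and GFP- mammary cells. Every other pair of groups lay between -0.109 and 0.114, with 0.069 in the Ucp1 line and -0.109 between the brown adipocyte groups. A replicate block is 1 term shared by all 6 groups, so it cannot fit a pairing in the Myf5 mammary groups alone. Such a pairing was not modelled. With a replicate block the counts called were 0 and 2 by GFP label in the Myf5 and Ucp1 lines, 3 for their difference, 5 across tissues in the Myf5 line, 3 in the Ucp1 line and 6 in GFP- cells, and 0 between lines in brown adipocytes and in GFP- mammary cells. Over all 16953 genes the fit with the block called 0 and 1853 by GFP label in those lines and 1516 for their difference. Across tissues it called 2635, 3802 and 3863 genes in the same order. Between lines it called 76 in brown adipocytes and 0 in GFP- mammary cells. The block turned Igf2 to -0.34 by GFP label in the Ucp1 line and Igfbp6 to 0.45 between lines in brown adipocytes.

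Over all genes tested, the calls ranged under the alternatives from 0 to 724 by GFP label in the Myf5 line, 1293 to 4165 in the Ucp1 line, 949 to 3740 for their difference, 1163 to 6199 and 0 to 6424 across tissues in the Myf5 and Ucp1 lines, 2008 to 8226 for GFP- mammary cells, 0 to 1486 between lines in brown adipocytes and 0 to 43 in GFP- mammary cells. RLE scaling moved the median log2 fold change of all genes to -0.51 from -0.69 by GFP label in the Ucp1 line and to 0.12 from 0.35 in GFP- mammary cells against brown adipocytes. Members with 1 or 2 counts in a group, Igf1 in Ucp1 GFP+ mammary cells, Igf1r in Myf5 brown adipocytes and Igfbp2 in both brown adipocyte groups, are limited by depth.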
